A study of Mus musculus with 12 samples.

Results

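A set of 10 genes that signal DNA damage were examined for binding of the chromatin remodeller INO80 and for the histone variant H2A.Z in mouse spermatogenic cells. The genes were Atr, Atrip, Topbp1, Hus1, Rad9a, Chek1, Atm, Mdc1, Rnf8 and Brca1, a list made by name from the ATR and ATM pathways that act in meiotic silencing and checkpoints. These 10 are part of 21887 protein-coding genes in the RefSeq table on chromosomes 1 to 19, X and Y, and all 10 were found in it. Each gene was taken with its body and 5 kb on both sides, which is called its window here.

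Chromatin immunoprecipitation and sequencing (ChIP-seq) had been done on cells of testes at postnatal day 18, from mice of mixed background. H2A.Z was precipitated from Ino80cKO cells, in which Stra8-Cre had deleted Ino80 in the testis, and from Ino80WT cells. INO80 was precipitated from wild-type cells. Each of these 3 groups had 2 libraries and a matching group of 2 input libraries, and nothing in the labels ties the libraries to separate mice. Stra8-Cre acts in premeiotic germ cells, and digested tubules of this age give a mixture of germ cell stages. The files used here are 3 peak lists, 1 per ChIP group, that give the chromosome, start and end of each peak on mm10. A list stands for both libraries together, so the values carry no replicate error, no test between genotypes was possible, and every comparison is between 2 lists. Depth per library is unknown.

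ATR and ATM are kinases that respond to damaged or unsynapsed DNA. In spermatocytes BRCA1 and the HORMAD proteins help to bring ATR, with its partner ATRIP and its activator TOPBP1, to the unsynapsed axes of the X and Y chromosomes, where it phosphorylates H2AX. MDC1 binds phosphorylated H2AX and carries the signal into the chromatin loops, which are then silenced, and the ubiquitin ligase RNF8 acts on that chromatin after MDC1. HUS1 and RAD9A are subunits of a ring-shaped clamp that activates ATR, and CHEK1 is the kinase that carries the ATR signal to the cell cycle. H2A.Z marks nucleosomes next to active and poised gene starts, and INO80 is the ATPase of a complex that can remove it.

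The lists differed in length. There were 18139 INO80 peaks (median width 678 bp), 26199 H2A.Z peaks in Ino80cKO cells (422 bp) and 33827 in Ino80WT cells (460 bp). The narrowest peak in each list was 147 bp and the smallest gap between neighbours 251 bp. In all, 23485 H2A.Z regions held peaks of both genotypes, and of these 72.8% were narrower in the Ino80cKO list, with a median width ratio of Ino80cKO over Ino80WT of 0.867. Differences at single genes are therefore set beside the same value over all protein-coding genes. In a mixture of cells, less H2A.Z per cell and fewer cells with H2A.Z cannot be told apart. Over the window of Ino80 itself the lists gave 487 bp of H2A.Z in Ino80cKO cells, 1024 bp in Ino80WT cells and 1390 bp of INO80, none of which shows the deletion. As a check of the label, germ cell markers held H2A.Z at 9 of 10 genes in Ino80cKO cells and 10 of 10 in Ino80WT cells, and markers of somatic testis cells at 7 of 12 genes in Ino80cKO cells and 9 of 12 in Ino80WT cells. Sertoli markers held it at 4 of 4 in both genotypes, Leydig markers at 2 of 4 in both, and markers of other cells at 1 of 4 in Ino80cKO cells and 3 of 4 in Ino80WT cells. A peak is not a measure of expression, so the cell type cannot be checked from these lists.

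The promoter windows of 4 genes are shown here, for these reasons: the Hus1 and Rnf8 starts lay under H2A.Z in Ino80WT cells and not in Ino80cKO cells, Atr had the widest INO80 peak over a member's start, and Mdc1 had INO80 on both sides of its start. Each runs from 250 bases before the RefSeq start to 50 bases from it, 5′ to 3′ on the gene's strand, in GRCm38.p6, the assembly that mm10 names. Capitals mark bases that lie under an INO80 peak. The windows are Hus1 on the minus strand of chr11:9011142-9011441, Rnf8 on the plus strand of chr17:29614539-29614838, Atr on the plus strand of chr9:95857347-95857646 and Mdc1 on the plus strand of chr17:35841248-35841547.
Hus1: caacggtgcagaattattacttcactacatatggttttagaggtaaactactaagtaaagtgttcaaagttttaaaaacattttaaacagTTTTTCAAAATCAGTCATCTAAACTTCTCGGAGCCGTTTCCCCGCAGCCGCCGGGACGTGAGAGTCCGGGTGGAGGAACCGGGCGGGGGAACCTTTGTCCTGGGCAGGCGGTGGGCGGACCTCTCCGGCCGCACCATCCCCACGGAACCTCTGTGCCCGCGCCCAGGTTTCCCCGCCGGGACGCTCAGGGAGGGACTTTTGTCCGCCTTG
Rnf8: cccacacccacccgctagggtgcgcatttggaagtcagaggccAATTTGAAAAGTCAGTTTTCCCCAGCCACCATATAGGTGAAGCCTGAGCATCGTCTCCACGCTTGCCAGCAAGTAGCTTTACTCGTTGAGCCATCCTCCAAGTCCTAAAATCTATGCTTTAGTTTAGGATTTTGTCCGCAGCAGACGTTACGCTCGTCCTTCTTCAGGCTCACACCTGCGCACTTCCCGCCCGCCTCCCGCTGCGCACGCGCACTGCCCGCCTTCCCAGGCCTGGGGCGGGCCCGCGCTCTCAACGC
Atr: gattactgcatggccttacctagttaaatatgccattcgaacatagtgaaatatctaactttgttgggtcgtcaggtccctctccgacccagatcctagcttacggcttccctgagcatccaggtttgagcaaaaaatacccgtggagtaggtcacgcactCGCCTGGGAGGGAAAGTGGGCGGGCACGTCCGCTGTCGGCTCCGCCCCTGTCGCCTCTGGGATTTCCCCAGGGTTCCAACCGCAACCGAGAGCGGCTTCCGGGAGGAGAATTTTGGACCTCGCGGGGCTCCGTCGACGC
Mdc1: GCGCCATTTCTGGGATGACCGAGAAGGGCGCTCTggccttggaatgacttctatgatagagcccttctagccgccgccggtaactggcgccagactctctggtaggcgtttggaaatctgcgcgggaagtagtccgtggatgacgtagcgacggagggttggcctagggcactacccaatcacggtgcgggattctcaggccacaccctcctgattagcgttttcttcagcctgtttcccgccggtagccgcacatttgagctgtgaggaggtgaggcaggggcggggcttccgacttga
In the Hus1 window 210 of 300 bases lay under INO80, none under H2A.Z of Ino80cKO cells and all 300 under H2A.Z of Ino80WT cells. In the Rnf8 window 257 bases lay under INO80, none under H2A.Z of Ino80cKO cells and 285 under H2A.Z of Ino80WT cells. In the Atr and Mdc1 windows 139 and 34 bases lay under INO80 and none under H2A.Z of either genotype. Peak outlines are the authors' and are not exact to the base.

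All 10 genes held INO80 and, in both genotypes, H2A.Z within their windows. Over all protein-coding genes with the same window INO80 was found at 63.3%, H2A.Z at 70.1% in Ino80cKO cells and at 73.6% in Ino80WT cells, and H2A.Z of both genotypes at 69.6%. No member had H2A.Z in Ino80cKO cells alone (0.571% of all genes) or in Ino80WT cells alone (4.00%). The median window was 32527 bp for the 10 genes and 27169 bp for all. Together the 10 windows held 15 INO80 peaks, 17 H2A.Z peaks of Ino80cKO cells and 18 of Ino80WT cells.

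INO80 peaks at these genes were mostly narrower than the list's median of 678 bp. The 15 peaks ranged from 147 to 1581 bp with a median of 526 bp. At 4 of the 10 genes (Atr, Mdc1, Rnf8 and Rad9a) a peak lay in the wider 50% of the INO80 list. Such a peak was found at 8831 of 21887 genes (40.3%), a base that includes genes without INO80. All 10 members held INO80, so the like base is the 13863 genes with INO80, of which 8831 had such a peak. The widest INO80 peak per gene had a median of 638 bp over the 10 genes and of 906 bp over all genes with INO80. Over the other genes of the damage pathway that held INO80, described last, it was 520 bp. Of the 15 peaks, 12 overlapped H2A.Z of Ino80cKO cells and 14 H2A.Z of Ino80WT cells, against 77.6% and 83.0% of the whole INO80 list. The 1 peak off the Ino80WT H2A.Z list lay in Mdc1 and overlapped H2A.Z of Ino80cKO cells.

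**Figure D1:**
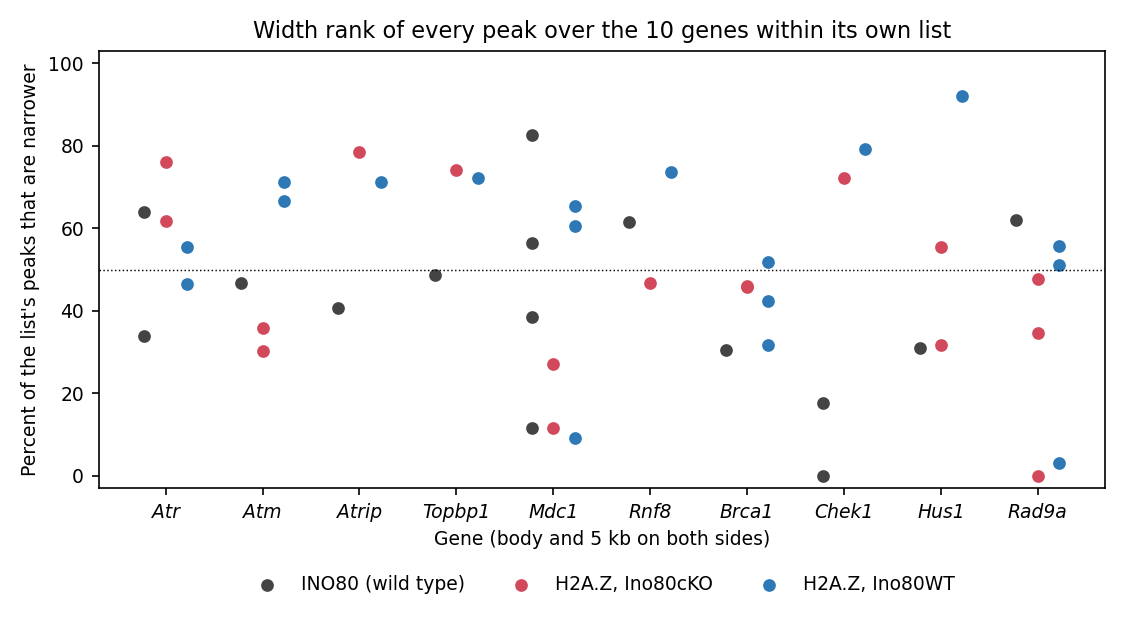
Each point is 1 peak over a gene's body or the 5 kb on either side, and the vertical axis gives the percent of peaks in the same list that are narrower, with the dotted line at 50. INO80 is in grey, H2A.Z of Ino80cKO cells in red and H2A.Z of Ino80WT cells in blue. Of the H2A.Z peaks, 6 of 17 in Ino80cKO cells and 13 of 18 in Ino80WT cells lie in the wider 50% of their list, and 5 of 15 INO80 peaks do.

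RefSeq starts and promoter sequences were matched for 9 of the 10 genes, all except Rad9a. The start base itself lay under INO80 at 5 of the 9 genes (35.8% of 14731 genes with 1 RefSeq start), under H2A.Z of Ino80cKO cells at 4 (34.3%) and under H2A.Z of Ino80WT cells at 6 (42.1%). Those covered by INO80 were Atr, Atrip, Topbp1, Rnf8 and Hus1. Those covered by H2A.Z in Ino80cKO cells were Atm, Atrip, Topbp1 and Chek1, and in Ino80WT cells the same 4 and Rnf8 and Hus1. Positions below are in bp from the start along the gene, negative when upstream.

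**Figure D2:**
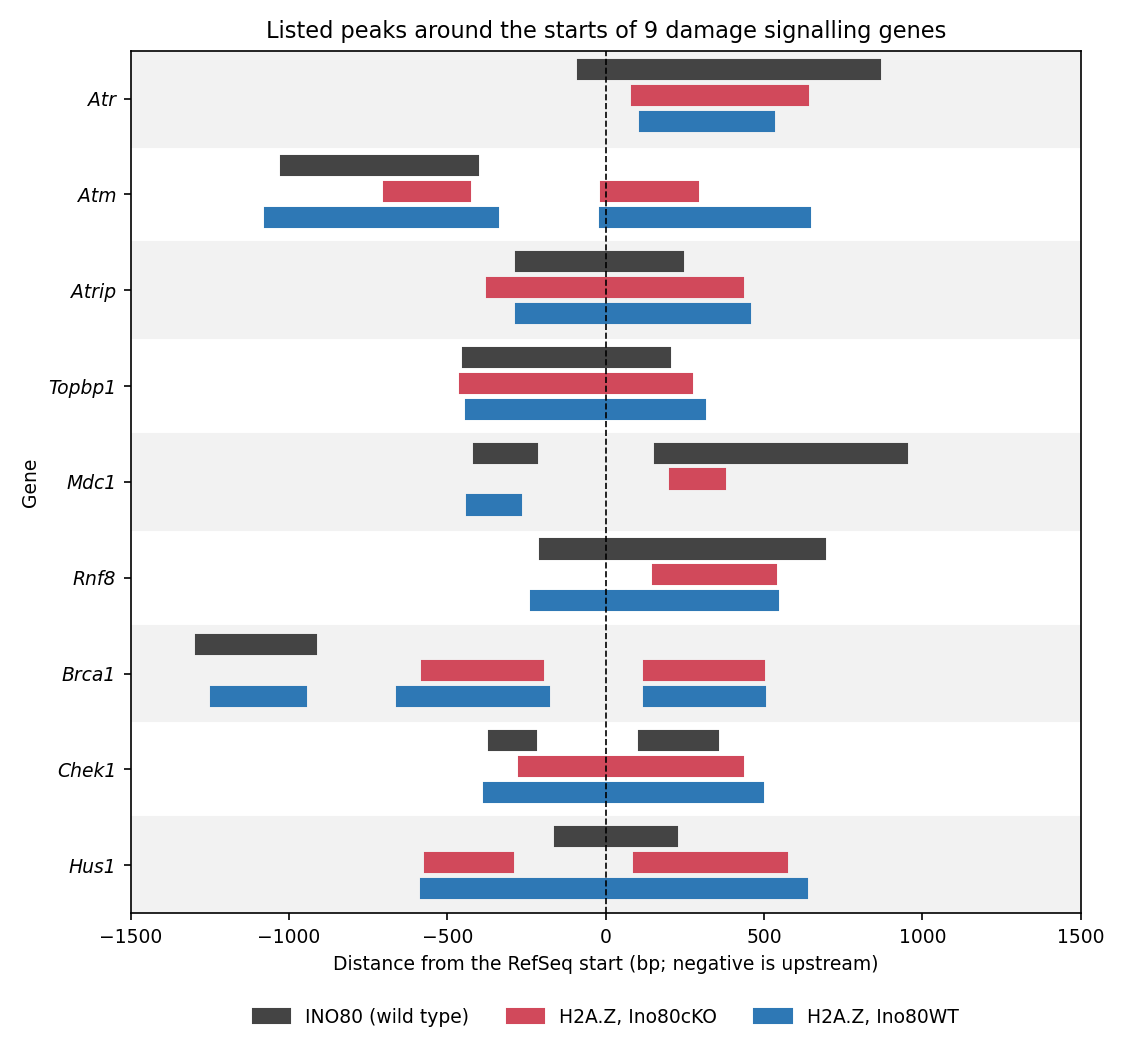
Bars show listed peaks within 1.5 kb of the RefSeq start (dashed line) of 9 genes, drawn to scale in the direction of transcription, with INO80 in grey, H2A.Z of Ino80cKO cells in red and H2A.Z of Ino80WT cells in blue. At Hus1 the wild-type H2A.Z bar spans the start and the Ino80cKO list has a gap of 382 bp there, whereas at Atrip and Topbp1 all 3 lists span the start.

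The genes of the ATR kinase, its partner and its activator differed least or had more covered length in Ino80cKO cells. Atr (chromosome 9, 95857597 to 95953217), which encodes the kinase, had 1322 bp of H2A.Z in Ino80cKO cells and 946 bp in Ino80WT cells, a ratio of 1.40 and the highest of the 10. At its start the Ino80cKO peak ran from 84 to 638 and the Ino80WT peak from 109 to 531, so the start base was free of H2A.Z in both lists. The INO80 peak of 954 bp, from -89 to 864, covered that start and held both H2A.Z peaks. The same sequence includes 2 starts of the head-to-head gene 1700065D16Rik, which overlaps Atr by 286 bp. Its start at 95857882 lay under INO80 and under H2A.Z of both genotypes, and its start at 95857517 under INO80 alone. The other peaks in the Atr window, with 767 bp of H2A.Z in Ino80cKO cells, 523 bp in Ino80WT cells and 431 bp of INO80, lay 3 prime of Atr over or just past the start of Xrn1, which encodes an RNA exonuclease. They also lie in the non-coding gene Gm16794, which overlaps Atr by 11173 bp, and a RefSeq start of it lay under the Ino80cKO peak and under neither other peak. The pseudogene LOC115487301, of 178 bp inside Atr, held no peak. Both regions were thus wider in the Ino80cKO list, and they are 2 of the 3 such regions over the 10 genes.

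Atrip (chromosome 9, 109059747 to 109074124), which encodes the partner that recruits ATR to single-stranded DNA, held the third. Its H2A.Z peak spanned 811 bp in Ino80cKO cells and 738 bp in Ino80WT cells, and the INO80 peak of 526 bp lay within both. The start of the readthrough transcript Atrip-trex1 lies in the same peaks. At Topbp1 (chromosome 9, 103305167 to 103350428), which encodes the activator of ATR, H2A.Z spanned 733 bp in Ino80cKO cells and 754 bp in Ino80WT cells. Its INO80 peak of 653 bp covered nearly the same bases, from -450 to 202, against -460 to 272 and -441 to 312 for H2A.Z of Ino80cKO and Ino80WT cells. The edges at Atrip and Topbp1 differed by at most 92 bp between genotypes, less than the narrowest peak that the lists contain.

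The clamp genes and Chek1 had less covered length in the Ino80cKO list. Hus1 (chromosome 11, 8993137 to 9011236) had 761 bp of H2A.Z in Ino80cKO cells and 1220 bp in Ino80WT cells. The Ino80WT peak was unbroken from -584 to 635 and was wider than 92.1% of its list, while the Ino80cKO list had a peak from -572 to -294 and another from 89 to 570. The outer edges lay only 12 and 65 bp further in, and most of the difference lay in the gap of 382 bp over the start. The INO80 peak of wild-type cells, from -160 to 225, filled 249 bp of that gap. Hus1 was the only member where a peak of Ino80WT cells met more than 1 peak of Ino80cKO cells, which occurred at 7.25% of the 15228 genes with H2A.Z in both genotypes.

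Chek1 (chromosome 9, 36708482 to 36726658) had 705 bp of H2A.Z in Ino80cKO cells and 883 bp in Ino80WT cells, both over the start. Here it was INO80 that had a gap of 325 bp over the start, with a peak of 250 bp downstream and a peak of 147 bp, the minimum of the list, upstream. At Rad9a (chromosome 19, 4195196 to 4201672) the window held 845 bp of H2A.Z in Ino80cKO cells and 1148 bp in Ino80WT cells. The only INO80 peak, of 914 bp, lay 2393 bp outside the lower end of Rad9a over Ppp1ca, a phosphatase gene that overlaps Rad9a by 224 bp, and within 1 kb of the end of Tbc1d10c. Near the upper end of Rad9a H2A.Z covered 299 bp in Ino80cKO cells and 471 bp in Ino80WT cells without INO80. Beyond that end each list had a further narrow peak over the non-coding gene Gm30082, of 147 bp in Ino80cKO cells and 151 bp in Ino80WT cells, which did not overlap each other.

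By covered length in the 5 kb windows, Mdc1, Atm and Rnf8 had the lowest ratios of Ino80cKO over Ino80WT. At Mdc1 this lay at neighbouring genes, and at Atm part of it did. Atm (chromosome 9, 53437122 to 53536828), which encodes the kinase that responds to DNA breaks, had 579 bp of H2A.Z in Ino80cKO cells and 1400 bp in Ino80WT cells, a ratio of 0.414. At the Atm start the peak was 308 bp wide in Ino80cKO cells, from -16 to 291, and 664 bp wide in Ino80WT cells, from -19 to 644. The upstream edge was thus the same to within 3 bp and the downstream edge lay 353 bp nearer to the start. The other pair of H2A.Z peaks, of 271 bp in Ino80cKO cells and 736 bp in Ino80WT cells, lay over Npat, the histone gene activator whose annotated end is 60 bp from that of Atm. The INO80 peak of 623 bp lay on the Npat side, from 27 to 649 bp past the Npat start, and none lay over the Atm start.

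Mdc1 (chromosome 17, 35841495 to 35859670) had 424 bp of H2A.Z in Ino80cKO cells and 1405 bp in Ino80WT cells, a ratio of 0.302 and the lowest of the 10. Its window was the richest in INO80, with 4 peaks over 3070 bp. A pair of INO80 peaks flanked the start, from -415 to -217 and from 157 to 949, with a gap of 373 bp between them. In Ino80cKO cells a H2A.Z peak of 174 bp lay in the downstream one, and in Ino80WT cells a peak of 171 bp overlapped the upstream one by 148 bp, and neither had a partner in the other list. Both are narrow, since 11.5% of the Ino80cKO list and 9.14% of the Ino80WT list were narrower. The difference in covered length lay at the neighbours. Over Tubb5, a tubulin gene, the list of Ino80cKO cells had no H2A.Z peak and that of Ino80WT cells a peak of 584 bp within the 1581 bp INO80 peak. At Nrm, which encodes a protein of the nuclear envelope, H2A.Z covered 250 bp in Ino80cKO cells and 650 bp in Ino80WT cells.

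Rnf8 (chromosome 17, 29614789 to 29641664) had 1 peak in each list at its start, which it shares with the non-coding gene Gm28043. H2A.Z covered 390 bp in Ino80cKO cells, from 148 to 537, and 779 bp in Ino80WT cells, from -235 to 543. The downstream edge was the same to within 6 bp, and the upstream edge lay 383 bp further into the gene in Ino80cKO cells, so that the start was free of H2A.Z. The INO80 peak of 898 bp ran from -207 to 690 and overlapped 751 bp of the Ino80WT peak. Rnf8 and Hus1 were the 2 genes whose start base lay under H2A.Z in Ino80WT cells and not in Ino80cKO cells, and at both it lay under INO80 in wild-type cells. Over all genes with 1 start this class held 1405 (9.54%), of which 49.6% had the start under INO80. That share was 71.8% where the start lay under H2A.Z in both genotypes and 49.2% where it did so in Ino80cKO cells alone.

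At Brca1 (chromosome 11, 101488761 to 101551955), H2A.Z flanked a start free of H2A.Z and of INO80. The peak within Brca1 was 381 bp wide in Ino80cKO cells and 382 bp in Ino80WT cells, from 120 to 500 and from 122 to 503. The peak upstream, inside the head-to-head gene Nbr1, was 384 bp wide in Ino80cKO cells and 480 bp in Ino80WT cells. The gap between them measured 317 bp in Ino80cKO cells and 301 bp in Ino80WT cells. A further Ino80WT peak of 303 bp, inside Nbr1, had no partner in the Ino80cKO list, and it was the only H2A.Z of the window under INO80. That INO80 peak, 381 bp wide, ran from -1295 to -915.

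**Figure D3:**
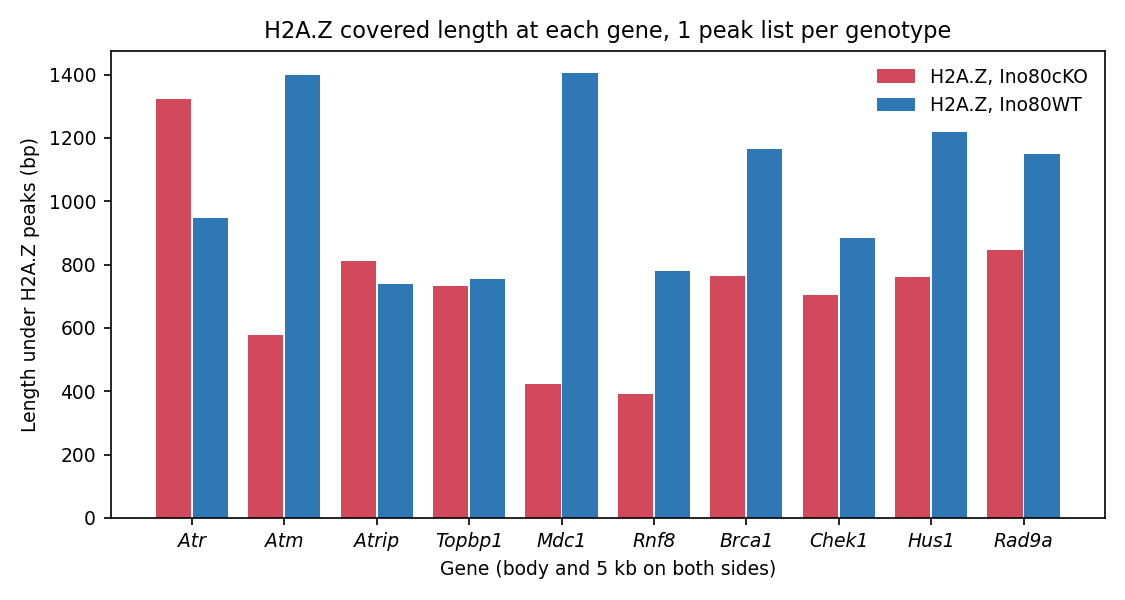
Bars give the length under H2A.Z peaks in each gene's window in bp, for Ino80cKO cells (red, left) and Ino80WT cells (blue, right), from 1 peak list per genotype and so without error bars. The red bar is the shorter at 8 genes, by most at Mdc1 (424 against 1405 bp), and the longer at Atr and Atrip.

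Over the 10 genes covered length was lower in Ino80cKO cells at 8, which is near the share over all genes with H2A.Z in both genotypes (78.9%). The median ratio of Ino80cKO over Ino80WT was 0.695 over the 10 genes and 0.831 over all. The genes spread widely within that background. At Mdc1, Atm and Rnf8 the ratio was lower than at all but 3.23%, 7.83% and 12.7% of genes. At Atr it was higher than at 97.2% of genes and at Atrip higher than at 89.5%. These ranks belong to the windows. Ino80cKO less Ino80WT width was -465 bp over Npat and -356 bp at the Atm start. It was 244 bp near the Xrn1 start and 132 bp just past the Atr start, over a start of 1700065D16Rik. At Mdc1 the difference lay at Tubb5 and Nrm. The other 5 genes lay between 23.3% and 74.6%.

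**Figure D4:**
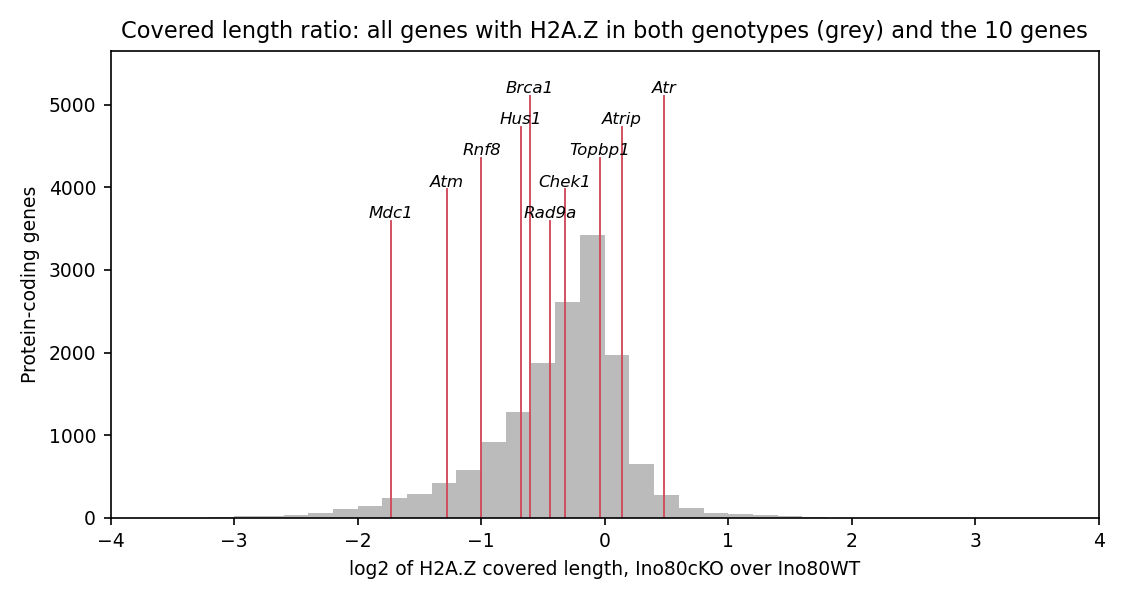
Grey bars count protein-coding genes by the log2 ratio of H2A.Z covered length in the window, Ino80cKO over Ino80WT, in steps of 0.2 with ratios beyond 4 put in the end bars. Red lines place the 10 genes, from Mdc1 at -1.73 to Atr at 0.48, around the median of all genes of -0.27.

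Counted as regions, the 10 windows held 20, of which 14 had H2A.Z in both genotypes, 2 in Ino80cKO cells alone and 4 in Ino80WT cells alone. At least 1 region of Ino80cKO cells alone was found at 2 genes, Mdc1 and Rad9a (5.03% of all genes), and of Ino80WT cells alone at 3 genes, Mdc1, Brca1 and Rad9a (20.5%). INO80 overlapped 1 of the 2 regions of Ino80cKO cells alone, 3 of the 4 of Ino80WT cells alone and 10 of the 14 shared ones. Over the genome these shares were 22.5%, 15.0% and 61.1%. They include regions outside gene windows, and the share over regions in gene windows alone was not computed. The sets are thus unlike, and an excess of INO80 at these genes cannot be read from them. The 4 regions of Ino80WT cells alone lie at 3 genes and none covers a matched start. In shared regions the median log2 width ratio of Ino80cKO over Ino80WT was -0.36 (all shared regions -0.21). Of the 14, 11 were narrower in the Ino80cKO list (78.6%, all shared regions 72.8%). Of 10 shared regions within 1 kb of a start, the downstream edge lay further in at 9 in Ino80cKO cells and the upstream edge at 6. Over all genes with 1 start these shares were 64.1% and 67.0%.

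The other genes of the pathway were described with the same window. This list of 41 genes held the clamp subunit Rad1, the clamp loader Rad17, the RPA genes, the break sensors Mre11a, Rad50 and Nbn, and cell cycle and silencing factors. INO80 was found at 33 (80.5%, all genes 63.3%). H2A.Z was found at 37 in Ino80cKO cells (90.2%, all genes 70.1%) and at 38 in Ino80WT cells (92.7%, all genes 73.6%). The median window was 43898 bp for this list and 27169 bp for all genes. The widest INO80 peaks were at Usp7, a deubiquitinase (1758 bp), Ube2n, the ubiquitin-conjugating enzyme that works with RNF8 (1391 bp), the cell cycle kinase gene Wee1 (1324 bp) and Rad9b (1099 bp), a testis-expressed relative of Rad9a. The only gene of 1 genotype was Hus1b, a relative of Hus1, with no H2A.Z in Ino80cKO cells and 334 bp in Ino80WT cells. Neither INO80 nor H2A.Z was listed at H2ax, whose product is the substrate of ATR in silencing, nor at the X-linked genes Scml2 and Smc1a. Brcc3, which is also X-linked, had 834 bp of H2A.Z in Ino80cKO cells, 774 bp in Ino80WT cells and 724 bp of INO80. Hormad1, which encodes an axis protein upstream of ATR, had no INO80 and had 296 bp of H2A.Z in Ino80cKO cells and 789 bp in Ino80WT cells. Covered length was lower in Ino80cKO cells at 29 of the 37 genes with both (78.4%), near the share over all such genes (78.9%). The median ratio was 0.826, against 0.831 over all.

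The promoter sequences were searched on both strands for short motifs. The short CRE form TGACG was found in 6 of 9 promoters (Atr, Atrip, Topbp1, Mdc1, Brca1 and Chek1) and in 20.8% of all 32851 RefSeq promoters. The letters CCAAT were found in 5 (37.4%), the ETS core CCGGAAG in 3, namely Atr, Atm and Topbp1 (8.86%), the A-MYB core CCGTT in 2 (17.4%) and the NRF1 core GCATGCG in Atm alone (3.58%). None of the 9 held the YY1 core GCCATNTT (6.05%), the full CRE TGACGTCA (1.79%), the NRF1 palindrome (0.971%), the A-MYB form CAGTTG (13.7%) or the E-box CACGTG (7.15%). The full CRE contains the short form and the NRF1 palindrome contains its core. The 9 promoters had a median GC content of 58.7% and 22 CpG, against 52.7% and 7 over all promoters, and how much this adds to the matches of motifs that contain CG was not tested. A match of letters is a description of the sequence and not a site of binding.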

How the data were processed

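Cells from enzyme-treated tubules were filtered at 40 micron, then fixed (0.3% formaldehyde, 30 min), and micrococcal nuclease was used to cut the chromatin, per the labels' protocols. Peak outlines can therefore follow nucleosomes as well as binding. The authors deposited 3 peak lists of positions, with no score, fold or p-value. The submitters' processing notes name mm10, Bowtie2, SAMtools, deepTools and MACS2. Their roles and versions, the peak threshold, the control and how libraries were pooled were not given in the sources used here. Input libraries were not analysed here.

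Gene ends, starts and promoter sequences came from RefSeq tables of GRCm38.p6, which were used without exons. A peak belonged to a gene when it overlapped the gene body or 5 kb on either side by at least 1 bp. H2A.Z peaks of the 2 genotypes that overlapped by 1 bp were joined into regions. Covered length was the bp under peaks inside the window. Width stood in for strength, which it measures imperfectly. No test was run. The members and lists were chosen with earlier results of these data known. All members are named; of the pathway list the 4 with the widest INO80 peak and those with H2A.Z in 1 genotype are named, and H2ax, Scml2, Smc1a, Brcc3 and Hormad1 were named after their values were seen. Neighbours are named where they overlap a member or have an end within 1 kb of a peak. The overlap functions were tested on simulated data, and counts equalled those of bedtools 2.31.1 for 6 of 6 pairs of lists. Python 3.11.15, numpy 2.4.6 and matplotlib 3.10.9 were used.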

Additional observations from a re-analysis of the deposited data

How the results depend on the processing

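Of 67 values under alternative settings 52 lay within 1.5 times the reported one and 15 did not. These values are taken over the 10 genes together, and none of them changed direction. Single genes did, Mdc1 and Atrip among them. With 1 kb on both sides Mdc1 held 174 bp of H2A.Z in Ino80cKO cells and 171 bp in Ino80WT cells. With 5 kb these were 424 and 1405 bp. Atrip had more covered length in Ino80cKO cells with 5 kb and less with the gene body alone. Inside its body the Ino80cKO peak reached 434 bp past the start and the Ino80WT peak 453 bp. Covered length was lower in Ino80cKO cells at 7 genes with 1 kb and at 9 with 10 kb (8 reported). With 10 kb Atr or Atrip was thus no longer higher in Ino80cKO cells. With the gene body alone 1 gene, Mdc1, had H2A.Z in Ino80cKO cells only (0 reported), regions fell to 1 of Ino80cKO cells alone, 0 of Ino80WT cells alone and 9 shared, and 6 INO80 peaks overlapped Ino80WT H2A.Z (14 reported). Smaller windows hold fewer peaks. Taking only the wider 50% of every list, INO80 was left at 4 genes and Ino80cKO H2A.Z at 5, and 5 genes had H2A.Z in Ino80WT cells only. That setting gave 1 region of Ino80cKO cells alone, 8 of Ino80WT cells alone and 5 shared, and 3 INO80 peaks on Ino80WT H2A.Z. It removes partner peaks. The median log2 width ratio of shared regions was -0.04 there (-0.36 reported). Shortening the Ino80WT list to the length of the Ino80cKO list left 2 regions of Ino80WT cells alone. Joining H2A.Z peaks up to 500 bp apart left 0 regions of Ino80cKO cells alone and 1 of Ino80WT cells alone, the one over Tubb5. Windows of 1 kb left Rad9a without INO80 and 9 of 10 genes with it. The gene body alone left INO80 at 7 genes and Ino80WT H2A.Z at 9 (10 reported for both). Without INO80 in the body were Atm, Brca1 and Rad9a, whose INO80 peaks lay over Npat, Nbr1 and Ppp1ca. No paired analysis was possible because each list stands for both libraries of a group, and no library could be left out for the same reason. Depth is unknown, so an unlisted peak may differ little in strength from a listed one.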
